A study of Mus with 4 samples.

Results

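The 9 genes described here carry or restrain the signal by which noradrenaline switches on brown fat. They are the beta-adrenergic receptors *Adrb1* and *Adrb3* with *Gnas*, *Adcy6*, *Prkaca*, *Prkar1a*, *Prkar2b*, *Pde3b* and *Creb1*. They were chosen by name, and every entry with one of these names was taken from 2 lists of m6A peaks in mouse interscapular brown adipose tissue (iBAT). This gave 19 of the 18400 peaks listed for *Wtap* flox/flox mice and 26 of the 18693 peaks listed for *Wtap*-BKO mice. All 9 genes had at least 1 peak in each list, so no member was without a peak.

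Noradrenaline from sympathetic nerves binds beta-adrenergic receptors on brown adipocytes, and the stimulatory G protein then activates adenylyl cyclase. The cAMP formed releases the catalytic subunits of protein kinase A (PKA) from their regulatory subunits, and PKA drives lipolysis, heat production and transcription of thermogenic genes. N6-methyladenosine (m6A) is a methyl mark on mRNA, written by a complex in which WTAP holds the methyltransferase METTL3 and its partner METTL14.

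Both groups were C57BL/6 mice kept on normal chow and studied at 8 weeks of age. *Wtap* flox/flox mice, the controls, carry floxed *Wtap* alleles without Cre. *Wtap*-BKO mice carry the same floxed alleles with *Ucp1*-iCre, in which Cre is made from the *Ucp1* locus, so cells of the tissue that do not express *Ucp1* keep *Wtap*. Each genotype gave 1 m6A immunoprecipitate (IP) and 1 input sample of poly(A)+ RNA, each pooled from 8 mice. There are no replicates, so the spread between mice is unknown, nothing was tested between genotypes, and every comparison below describes these pooled samples. A peak is a stretch of exons with more IP than input reads, and each list gives its blocks on GRCm38.p6, its false discovery rate (FDR) and its fold enrichment of IP over input. The FDR depends on the number of reads as well as on the enrichment, and the depth of the samples is unknown.

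The lists were called separately and share no scale, so each peak was placed within its own list, by the percentage of peaks there with a weaker FDR (its FDR rank) and with a lower fold enrichment (its fold rank). Peaks of the 2 lists were matched, and a peak counted as found, where their exonic blocks had 1 or more bases in common on one strand. A peak that was not found did not reach the authors' threshold there, which is not the same as an unmethylated site. Peaks give no transcript level, and the *Wtap* transcript itself, with 4 peaks in each list that were all found in the other, does not check the genotype labels. In bulk tissue, fewer cells of a type and less RNA per cell cannot be told apart.

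Marker genes of brown adipocytes and of other cell types were counted in each list. Since peaks give no transcript level, these counts do not settle the tissue label. Of 14 brown adipocyte markers, 14 had a peak in the controls and 13 had one after *Wtap* deletion, with *Elovl3* the exception. Of 12 skeletal muscle markers, 4 and 11 had a peak, and of 12 macrophage markers 7 and 11. The numbers were 2 and 6 of 12 for lymphocytes and 8 and 9 of 10 for fibroblasts. Of all genes with a peak in either list, 70.1% had peaks in both. Among the markers with a peak in *Wtap*-BKO mice only were *Myh1*, *Myh2* and *Ttn* of muscle, *Mrc1* and *Msr1* of macrophages, *Ptprc*, *Cd4* and *Cd8a* of lymphocytes and *Mmp2* of fibroblasts. *Adgre1* of macrophages, *Ckm* of muscle, *Cd3d* and *Cd3e* of lymphocytes and *Fn1* of fibroblasts had no peak in either list. The part of other cell types in the results on the 9 genes was not tested.

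**Figure D1:**
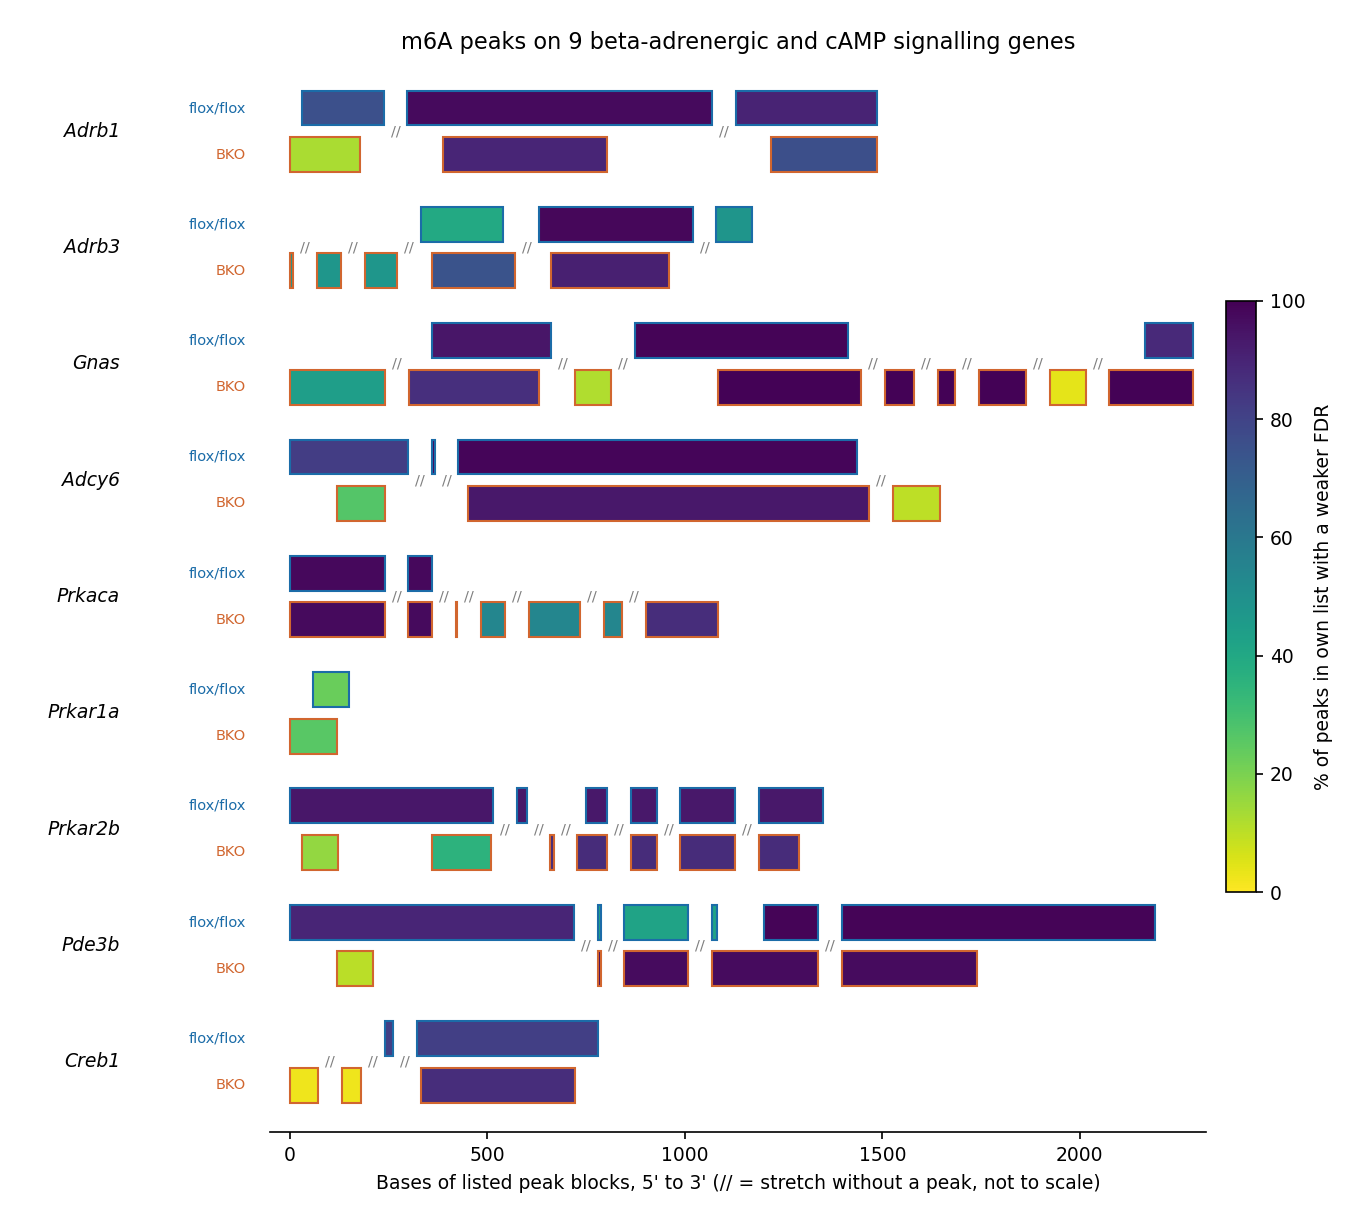
m6A peaks on the 9 genes, drawn 5′ to 3′ in exonic bases with the stretches between peaks cut out (double slashes), with *Wtap* flox/flox above *Wtap*-BKO for each gene. Colour gives the percentage of peaks in the own list with a weaker FDR. All 9 genes have peaks in both lists, and the most 5′ *Wtap* flox/flox peaks of *Adrb1*, *Adcy6*, *Prkar2b* and *Pde3b* are dark where the *Wtap*-BKO peaks on them are pale.

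*Adrb1* (ENSMUSG00000035283) encodes the beta-1 adrenergic receptor and lies on the plus strand of chromosome 19 at chr19:56722117-56725150. It had 3 peaks in each list, and the 3 pairs lay one on another. The middle peak was the strongest in both. In *Wtap* flox/flox mice it covered 771 bases (chr19:56723469-56724239) with a log10 FDR of −147 and a fold enrichment of 10.4, and in *Wtap*-BKO mice 416 bases (chr19:56723558-56723973) with −36 and 5.68. The shorter *Wtap*-BKO peak lay wholly inside the longer one, and their FDR ranks were 97.4% and 89.5%. The 3′ peak had the same end in both lists, base 56724803, but covered 357 bases in the controls and 268 in *Wtap*-BKO mice, with FDR ranks of 90.6% and 75.8%. The pair nearest the 5′ end differed most. Its *Wtap* flox/flox peak (208 bases, log10 FDR −22.2) ranked above 75.4% of its list by FDR, against 12.8% for the *Wtap*-BKO peak (179 bases, −2.53). Together the *Wtap* flox/flox peaks covered 1336 bases and the *Wtap*-BKO peaks 863, of which 833 were common to both.

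*Adrb3* (ENSMUSG00000031489), on the minus strand at chr8:27225776-27230845, encodes the beta-3 receptor, the form found mainly in adipocytes. It also had 3 peaks in each list, but only 2 of them corresponded. The strongest peak covered 389 bases in *Wtap* flox/flox mice (chr8:27227981-27228369, log10 FDR −179, fold enrichment 5.92). The *Wtap*-BKO peak on it covered 300 bases, all shared, with −41.7 and 2.26, and the FDR ranks were 98.2% and 91.2%. The next peak in the 5′ direction, of 210 bases in both lists with 180 shared, went the other way, at an FDR rank of 39.6% in the controls and 74.3% in *Wtap*-BKO mice.

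The remaining *Adrb3* peaks were each in 1 list. In *Wtap* flox/flox mice, a peak of 90 bases at chr8:27225806-27225895, centred 74 bp from the 3′ end of the gene, had a log10 FDR of −7.2 and a fold enrichment of 1.79, lower than nearly all of its list at a fold rank of 2.69%. It was the only *Wtap* flox/flox peak on the 9 genes that was not found in the *Wtap*-BKO list. In *Wtap*-BKO mice, a peak of 151 bases in 3 blocks had a log10 FDR of −5.85 and a fold enrichment of 13.7. Its first 2 blocks in the direction of transcription lie upstream of the RefSeq gene, reaching 19652 bp past its 5′ end. The 81 bases of the remaining block also lie under a *Wtap*-BKO peak on the opposite strand, so the gene it belongs to is uncertain.

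*Gnas* (ENSMUSG00000027523) encodes the alpha subunit of the stimulatory G protein, and its locus on the plus strand at chr2:174284320-174346744 also makes several other transcripts from upstream promoters. It carried the strongest peak of the 9 genes in each list. In *Wtap* flox/flox mice this peak covered 541 bases (chr2:174329861-174330401) with an FDR listed as 0, a log10 p of −4120 and a fold enrichment of 12. In *Wtap*-BKO mice it covered 601 bases in 4 blocks (chr2:174330071-174337739) with an FDR listed as 0, a log10 p of −3110 and a fold enrichment of 8.64. Both were among the strongest of their lists, with FDR ranks of 99.2% and 99.6%, and they shared 331 bases. The *Wtap*-BKO peak began further 3′ and ran on across splice junctions.

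A weaker *Gnas* peak upstream of it was also in both lists, with 271 shared bases and FDR ranks of 94.5% and 86.4%. The peak at the last bases of the gene covered 121 bases in *Wtap* flox/flox mice (log10 FDR −46.4, fold enrichment 1.95). It covered 211 bases in *Wtap*-BKO mice (−243 and 3.15), where it ranked higher by FDR (99.4% against 88.3%) and by fold (30.5% against 4.12%). Peaks of the opposite-strand gene *Gm20721* lie under 89 and 179 of these bases. Since how reads were assigned to a strand is not given in the sources used here, the 2 genes' shares of this signal cannot be told apart. A peak of *Gm20721* also lay under 179 bases of the strongest *Wtap*-BKO peak. Another 3 *Gnas* peaks were in the *Wtap*-BKO list alone, of 241, 91 and 91 bases, with log10 FDR of −5.35, −2.52 and −1.94 and FDR ranks of 44.2%, 11.9% and 4.11%, all below the median of the list.

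*Adcy6* (ENSMUSG00000022994), on the minus strand at chr15:98589978-98610287, encodes an adenylyl cyclase, the enzyme that makes cAMP. Its main peak was nearly the same in both lists. It covered 1016 bases in each (chr15:98591467-98592679 and chr15:98591437-98592452), with 986 shared, log10 FDR of −211 and −52.8 and fold enrichments of 9.8 and 5.23. The FDR ranks were 98.5% and 93.5%. The more 5′ peak covered 300 bases in *Wtap* flox/flox mice (chr15:98604076-98604375) and 120 bases inside it in *Wtap*-BKO mice, and its FDR rank was 82.2% against 26.6%. A further peak of 121 bases on the 3′ side was in the *Wtap*-BKO list alone, with a log10 FDR of −2.37.

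*Prkaca* (ENSMUSG00000005469), on the plus strand at chr8:83972978-83996444, encodes the main catalytic subunit of PKA. A peak of 301 bases in 2 blocks across a splice junction (chr8:83972993-83976943) had the same coordinates in both lists, centred 165 bp from the 5′ end of the gene. Its fold enrichment was 53.2 in *Wtap* flox/flox mice, above 99.4% of that list, and 7.05 in *Wtap*-BKO mice, above 66.2%. By FDR the pair ranked alike, at 97.7% and 97.3%, with log10 FDR of −158 and −95.3. This was the only peak in *Wtap* flox/flox mice. The *Wtap*-BKO list had a further peak of 241 bases in 4 blocks (chr8:83977092-83986883, log10 FDR −7.18, fold enrichment 5.31) and one of 181 bases centred 1020 bp from the 3′ end (chr8:83995334-83995514, −30.2 and 2.28). Both had an FDR under 1e-05, so *Prkaca* had 723 bases under *Wtap*-BKO peaks against 301 in the controls.

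*Prkar1a* (ENSMUSG00000020612), on the plus strand at chr11:109649023-109669663, encodes the type I-alpha regulatory subunit, which holds PKA inactive in the absence of cAMP. It had 1 weak peak in each list, with log10 FDR of −3.45 and −3.43 and fold enrichments of 1.34 and 1.32, at fold ranks of 0.185% and 0.412%. The peaks covered 91 bases (chr11:109667600-109667690) and 120 bases (chr11:109667541-109667660) and shared 61. *Prkar1a* was the only one of the 9 genes with no peak under an FDR of 1e-05 in either list.

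*Prkar2b* (ENSMUSG00000002997), on the minus strand at chr12:31958450-32061648, encodes the type II-beta regulatory subunit, the main one of adipose tissue. Its peaks had low fold enrichments, between 1.91 and 3.1 in *Wtap* flox/flox and between 1.31 and 1.77 in *Wtap*-BKO mice, although the *Wtap* flox/flox peaks ranked high by FDR. Toward the 3′ side, a peak of 420 bases in 4 blocks in *Wtap* flox/flox mice (log10 FDR −76.7) shared 360 bases with a *Wtap*-BKO peak of 390 bases (−30.9), at FDR ranks of 93.7% and 87.6%. Near the 5′ end, a *Wtap* flox/flox peak of 540 bases (chr12:32060565-32061296, log10 FDR −78.5) was met in *Wtap*-BKO mice by 2 short peaks of 151 and 91 bases. These had log10 FDR of −4.28 and −2.76 and together shared 242 bases, so this stretch went from an FDR rank of 93.9% to ranks of 35.6% and 16.4%.

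*Pde3b* (ENSMUSG00000030671), on the plus strand at chr7:114415222-114537938, encodes the phosphodiesterase that degrades cAMP in adipocytes under insulin. It had the widest difference in covered bases in favour of the controls, with 1831 bases under *Wtap* flox/flox and 871 under *Wtap*-BKO peaks, a ratio of 2.1. A *Wtap* flox/flox peak of 720 bases near the 5′ end (chr7:114415281-114416000, log10 FDR −52, fold enrichment 10.1) met a *Wtap*-BKO peak of only 91 bases with −2.42 and 1.52. The FDR ranks were 89.8% and 10.5% and the fold ranks 67.6% and 1.93%, the widest gap of any pair on the 9 genes on either scale. At the other end of the transcript, *Wtap* flox/flox mice had a peak of 181 bases and one of 930 bases (chr7:114534696-114536823, FDR listed as 0, log10 p −437, fold enrichment 7.7). A single *Wtap*-BKO peak of 780 bases (log10 FDR −87.6, fold enrichment 2.7) lay over both and shared 661 bases with them. By FDR the peak of 181 bases ranked at 42% of its list and the peak of 930 bases at 99.2%, against 96.9% for the undivided *Wtap*-BKO peak.

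*Creb1* (ENSMUSG00000025958), on the plus strand at chr1:64532794-64604548, encodes a transcription factor that PKA phosphorylates. Its main peak covered 480 bases in *Wtap* flox/flox mice (chr1:64579130-64597692) and 391 in *Wtap*-BKO mice (chr1:64597243-64597633), all 391 shared. The log10 FDR was −30.2 in both, and the fold enrichments of 16.5 and 13.9 had nearly equal fold ranks of 87.2% and 87.6%. A second *Wtap*-BKO peak of 121 bases further 5′ had a log10 FDR of −1.87, close to the limit of the list.

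**Figure D2:**
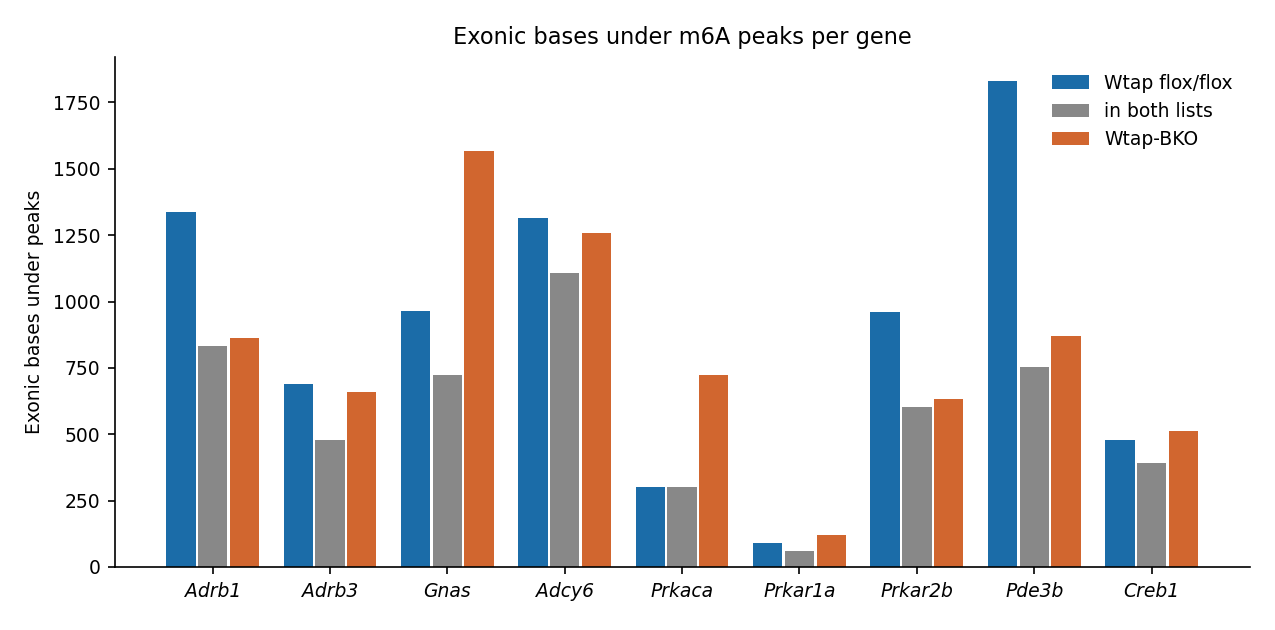
Exonic bases under peaks on each of the 9 genes in *Wtap* flox/flox mice (blue), in both lists (grey) and in *Wtap*-BKO mice (orange), 1 list per genotype and so without error bars. *Pde3b*, *Adrb1* and *Prkar2b* stand out with more bases in *Wtap* flox/flox mice, and *Gnas* and *Prkaca* with more in *Wtap*-BKO mice.

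Over the 9 genes, the lists covered nearly the same length, 7967 exonic bases in the controls and 7205 in *Wtap*-BKO mice, with 5249 in both. The ratio of 1.11 was that of all genes, 1.1. More bases lay under *Wtap* flox/flox peaks in 5 of the 9 genes, against 53.2% of all genes with peaks in both lists. The even total came from unlike genes, since the ratio ran from 0.416 in *Prkaca* and 0.615 in *Gnas* to 1.52 in *Prkar2b*, 1.55 in *Adrb1* and 2.1 in *Pde3b*. In *Adrb1* and *Prkar2b*, 96.5% and 95.3% of the *Wtap*-BKO bases also lay under *Wtap* flox/flox peaks, and in *Prkaca* and *Gnas* only 41.6% and 46.2% did.

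Of the 19 peaks of the controls, 1 had no match in the *Wtap*-BKO list (5.26%, 95% Wilson interval 0.935% to 24.6%), against 32.2% of all *Wtap* flox/flox peaks. Of the 26 *Wtap*-BKO peaks, 8 were not found in the *Wtap* flox/flox list (30.8%, interval 16.5% to 50%), against 32.0% of all, which is near the background. Those 8 were 3 on *Gnas*, 2 on *Prkaca* and 1 each on *Adrb3*, *Adcy6* and *Creb1*. All 9 genes had peaks in both lists, as had 70.1% of the genes with a peak in either. The intervals cover counting error only, and peaks of 1 gene share their transcript.

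Peaks with an FDR under 1e-05 had a match more often, and most *Wtap* flox/flox peaks on these genes were of that kind. This limit was reached by 18 of 19, against 63.1% of that list, and by 16 of 26 *Wtap*-BKO peaks, against 58.4%. Among those peaks, 1 of 18 in *Wtap* flox/flox mice had no *Wtap*-BKO peak on it (5.56%, interval 0.988% to 25.8%), where 20.4% of all such peaks had none. In the other direction 4 of 16 had no *Wtap* flox/flox peak on them (25%, interval 10.2% to 49.5%), where 15.4% of all had none. Both intervals include the share over all such peaks. Where the other list was held to the same limit, 5 of 18 *Wtap* flox/flox peaks had no partner, against 33.8% of all. These were the *Adrb3* peak near the 3′ end and the most 5′ peaks of *Adrb1*, *Adcy6*, *Prkar2b* and *Pde3b*. Under that limit 4 of 16 *Wtap*-BKO peaks had no partner, against 28.1% of all, and these were the 2 further peaks of *Prkaca*, the most 5′ peak of *Gnas* and the multi-block peak of *Adrb3*.

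**Figure D3:**
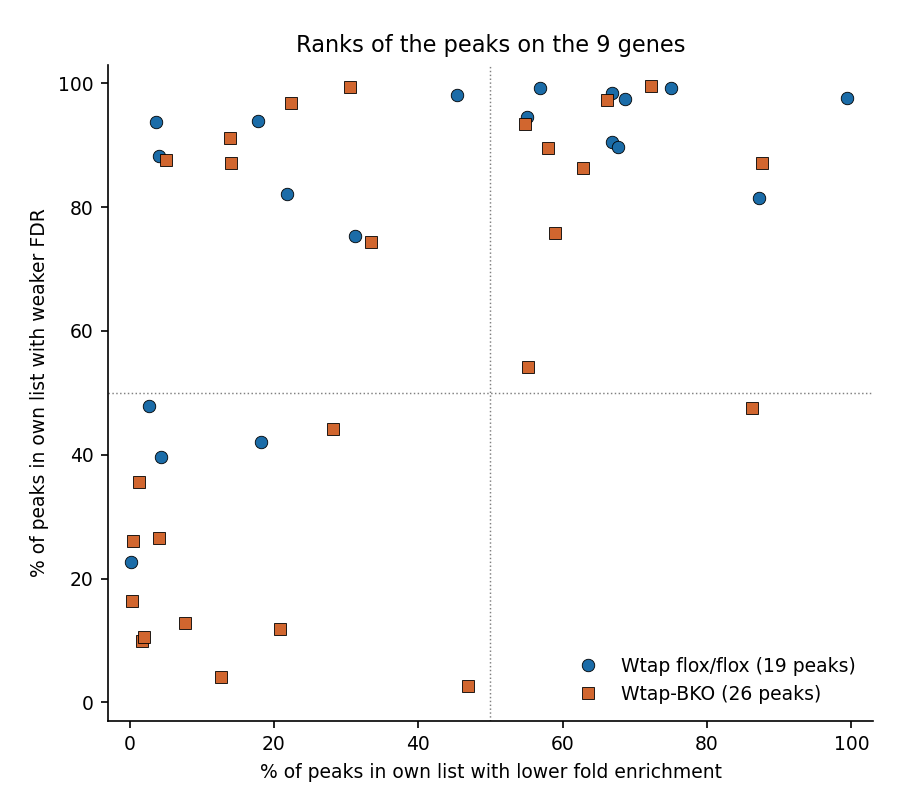
FDR rank against fold rank for the 19 *Wtap* flox/flox peaks (blue circles) and the 26 *Wtap*-BKO peaks (orange squares) on the 9 genes, each as the percentage of its own list with a weaker or lower value. Dotted lines mark the median of each list, above which 15 of 19 and 14 of 26 peaks lie by FDR, and 9 of 19 and 9 of 26 by fold.

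The FDR ranks of these peaks lay above their fold ranks at the median. The median *Wtap* flox/flox peak ranked above 90.6% of its list by FDR but above only 45.4% by fold, with a median fold enrichment of 5.92, against 6.58 in the whole list. The median *Wtap*-BKO peak ranked at 64.2% by FDR and at 25.3% by fold, with a median fold enrichment of 2.87, against 4.65 in that list. In *Wtap* flox/flox mice, both peaks of *Prkar2b* and the peak at the 3′ end of *Gnas* had FDR ranks between 88.3% and 93.9% beside fold ranks between 3.7% and 17.8%. The main peak of *Creb1* in both lists and the *Prkaca* peak of the controls ranked above 80% on both scales. The median peak covered 357 bases in *Wtap* flox/flox mice, against 240 in its whole list, and 210 bases in *Wtap*-BKO mice, equal to that list's median.

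**Figure D4:**
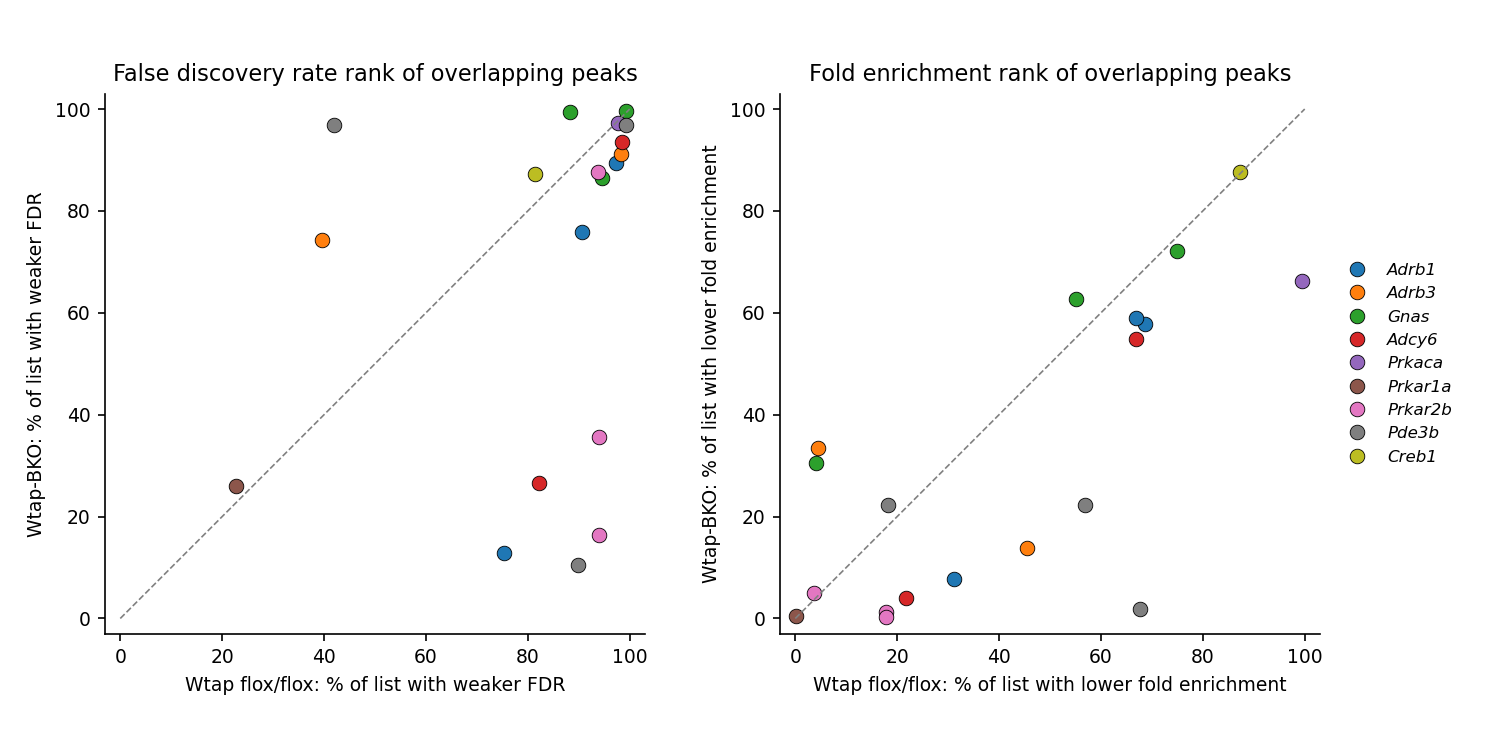
Ranks of overlapping peaks on the 9 genes, by FDR (left) and by fold enrichment (right), as the percentage of the own list with a weaker or lower value in *Wtap* flox/flox (x axis) and *Wtap*-BKO mice (y axis). Each point is 1 pair of peaks that share bases, and points below the dashed line of equal rank rank higher in *Wtap* flox/flox mice. A group of points from *Adrb1*, *Adcy6*, *Prkar2b* and *Pde3b* lies far below the line at the right of the FDR panel.

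For the 18 *Wtap* flox/flox peaks that were found, the FDR rank was higher than that of the strongest *Wtap*-BKO peak on them in 12 (66.7%, interval 43.7% to 83.7%), against 43.6% of all found peaks. The fold rank was higher in 11 of 18 (61.1%, interval 38.6% to 79.7%), against 48.9%. The interval of the former begins just above the background and that of the latter includes it. The background by FDR is not matched for rank. The *Wtap* flox/flox peaks on these genes had a median FDR rank of 90.6%, which leaves little room for a higher rank in the other list. Both cover counting error only and are no test.

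By FDR, though not by fold, the largest falls in rank shared a position on the gene, a pattern chosen after the values were seen. In 6 of the 9 genes the *Wtap* flox/flox list had 2 or more peaks. The most 5′ of these ranked over 50 percentage points higher by FDR than the strongest *Wtap*-BKO peak on it in *Adrb1*, *Adcy6*, *Prkar2b* and *Pde3b*, that is in 4 of the 5 genes where its rank was above 50% so that such a gap was possible. *Gnas* was the exception. Over all genes, the same held for 75 of 1903 such peaks (3.94%). That share is not matched for rank. The most 5′ peaks had a median FDR rank of 86% in the 6 genes and 45.2% over all genes with 2 or more, and a higher rank leaves more room for such a gap. In the remaining gene, *Adrb3*, the most 5′ peak had the lower rank in the controls, 39.6% against 74.3% in *Wtap*-BKO mice. The most 3′ peak showed such a gap in 0 of 5 genes where one was possible, and in 82 of 2120 over all genes (3.87%). That of *Adrb3* had no *Wtap*-BKO peak on it, which held for 34% of most 3′ peaks over all genes with 2 or more. By fold rank, the most 5′ peak of *Pde3b* fell by 65.7 percentage points, but those of *Adrb1*, *Adcy6* and *Prkar2b* differed by 23.5, 17.7 and 16.5, less than the 3′ peak of *Pde3b* (34.5), the *Prkaca* peak (33.2) and the middle peak of *Adrb3* (31.5). With 1 pooled sample per genotype this describes the lists, and no test of it was made.

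By distance along the genome, 3 of the 19 *Wtap* flox/flox peaks (15.8%) and 2 of the 26 *Wtap*-BKO peaks (7.69%) were centred within 1000 bp of the 3′ end of the gene, against 21.7% and 19.3% of all peaks. Those peaks were on *Adrb1* and *Gnas* in both lists and on *Adrb3* in *Wtap* flox/flox mice. Within 1000 bp of the 5′ end there were 3 of 19 (15.8%) and 5 of 26 (19.2%), against 11.4% and 13.1% of all. Stop codons were not located, so these are distances from gene ends only. Blocks in more than 1 exon were seen in 7 of 19 (36.8%) and 7 of 26 peaks (26.9%), against 15.4% and 19.8% of all.

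The other genes of the pathway were 95 genes listed by role. Both lists held peaks for 62 of them, 7 had peaks in the controls alone, 5 in *Wtap*-BKO mice alone and 21 in neither. They had 157 peaks in each list, of which 42 *Wtap* flox/flox peaks (26.8%, interval 20.4% to 34.2%) and 34 *Wtap*-BKO peaks (21.7%, interval 15.9% to 28.7%) were not found in the other. The interval of the former includes the 32.2% of all *Wtap* flox/flox peaks, and that of the latter lies below the 32.0% of all *Wtap*-BKO peaks. These intervals cover counting error only and are no test between genotypes. Of the 62 genes, 40 had more bases under *Wtap* flox/flox peaks, against 53.2% of all genes with peaks in both lists. For the 115 of their *Wtap* flox/flox peaks that were found, 55 had a higher FDR rank and 53 a higher fold rank in *Wtap* flox/flox mice, near the 43.6% and 48.9% of all found peaks.

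**Figure D5:**
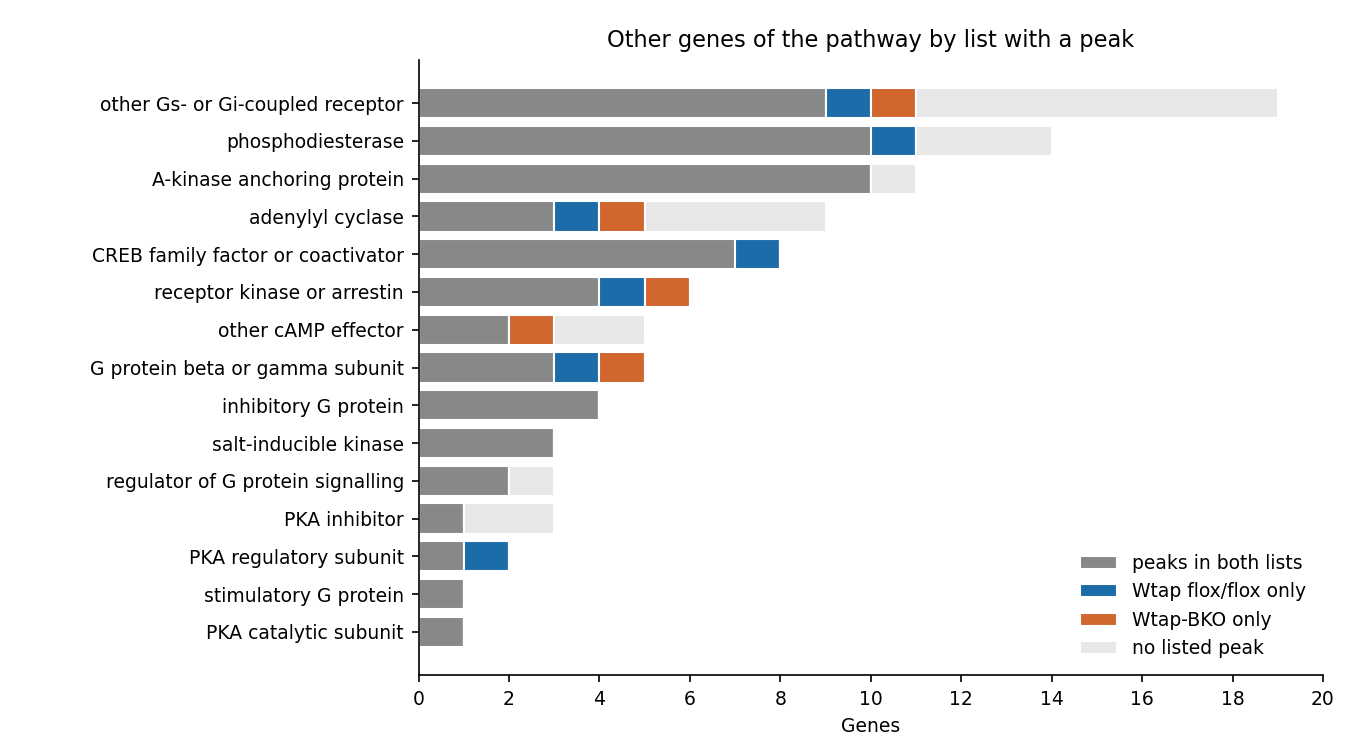
Number of other genes of the pathway, by role, with peaks in both lists (dark grey), in *Wtap* flox/flox only (blue), in *Wtap*-BKO only (orange) or in neither (light grey). Genes with peaks in both lists are the largest class in most roles, and those in 1 list only are spread over 8 of the 15 roles drawn. The role drawn as other Gs- or Gi-coupled receptor also holds the alpha-1 adrenergic receptors *Adra1a*, *Adra1b* and *Adra1d*, to which that name does not apply.

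Of 19 other G protein-coupled receptors, 9 had peaks in both lists. The strongest in the controls was on *Hcar1*, the lactate receptor that lowers cAMP in adipocytes, with log10 FDR of −145 and −122, and the strongest in *Wtap*-BKO mice was on *Adora2a*, an adenosine receptor that raises cAMP, with −109 and −142. *Tshr*, the thyrotropin receptor, had 2 peaks of 779 bases together in *Wtap* flox/flox mice only (log10 FDR −15.2, fold enrichment 16.7), and *Adra2b*, an alpha-2 receptor, 1 weak peak in *Wtap*-BKO mice only (−2.32).

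Receptor kinases and arrestins had peaks in both lists for 4 of 6 genes. *Grk3*, a kinase that desensitises receptors, had a log10 FDR of −55.9 in the controls and −4.66 in *Wtap*-BKO mice, at FDR ranks of 90.6% and 38.8%. *Grk6*, of the same family, had a peak in *Wtap* flox/flox mice only (−7.47), and *Arrb2*, a beta-arrestin, in *Wtap*-BKO mice only (−4.88). *Rgs2*, which limits G protein signalling, had an FDR listed as 0 in *Wtap* flox/flox mice and a log10 FDR of −109 in *Wtap*-BKO mice. These strongest peaks lay at different places (chr1:144001436-144002073 and chr1:144003026-144004161), so the values do not compare 1 site.

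Among G proteins, all 4 inhibitory alpha subunits had peaks in both lists. *Gnal*, the relative of *Gnas*, had a peak of 478 bases with a log10 FDR of −8.88 in the controls and one of 151 bases with −2.43 in *Wtap*-BKO mice, at FDR ranks of 53.7% and 10.6%. *Gnai2*, an inhibitory alpha subunit, ranked higher in *Wtap*-BKO mice, with log10 FDR of −53.9 and −169 at FDR ranks of 90.2% and 98.9%. The beta subunit *Gnb1* had very high fold enrichments in both, 110 and 45.5. Of the gamma subunits, *Gng5* had a peak in *Wtap* flox/flox mice only (−6.34) and *Gng2* in *Wtap*-BKO mice only (−4.23).

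Among the adenylyl cyclases other than *Adcy6*, *Adcy9* had the strongest peaks in both lists, with log10 FDR of −96.4 and −24.8. They were different peaks (chr16:4287887-4288455 and chr16:4417922-4418639), so the values do not compare 1 site. *Adcy5* had a peak in *Wtap* flox/flox mice only (−5.33), *Adcy4* in *Wtap*-BKO mice only (−2.75), and 4 of the 9 other cyclases in neither. PKA subunits outside the members had 4 peaks in the controls and 3 in *Wtap*-BKO mice. *Prkacb*, the second catalytic subunit, had the same 120 bases in both lists (−6.6 and −3.09), *Prkar2a* had −16 and −8.77, and *Prkar1b* a peak in *Wtap* flox/flox mice only (−2.77). The PKA inhibitor *Pkig* had −2.58 and −3.73. Of 11 anchoring proteins, which tether PKA, 10 had peaks in both lists, with *Akap6* the exception. *Akap1*, of the mitochondrial surface, had an FDR listed as 0 in *Wtap* flox/flox mice and a log10 FDR of −144 in *Wtap*-BKO mice, and *Pakap*, which holds the anchoring protein AKAP2, had an FDR listed as 0 in both.

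Of 14 other phosphodiesterases, 10 had peaks in both lists. *Pde4b*, which degrades cAMP, had log10 FDR of −88.1 and −148 at FDR ranks of 94.7% and 98.7%, and 811 of its 841 *Wtap*-BKO bases were shared. *Pde7b* had a peak of 541 bases in *Wtap* flox/flox mice only (−12.4, fold enrichment 39). Other effectors of cAMP included *Popdc2*, a cAMP-binding membrane protein (−46.1 and −15.7, for strongest peaks that do not overlap). Another was *Rapgef4*, an exchange factor for Rap with 2 peaks in *Wtap*-BKO mice only (the stronger −3.77).

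At the transcriptional end, 7 of the 8 other CREB family factors and coactivators had peaks in both lists. The strongest was on *Ep300*, a histone acetyltransferase that CREB recruits, with log10 FDR of −108 and −74.1 and FDR ranks of 96% and 96.1%. *Crtc1*, a coactivator of CREB, had a peak in *Wtap* flox/flox mice only (−3.83). All 3 salt-inducible kinases, which hold CRTC proteins in the cytoplasm until PKA inhibits them, had peaks in both lists, led by *Sik1* (−165 and −73).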

How the data were processed

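m6A MeRIP-seq of iBAT comprised 4 samples of paired 150 bp reads, assigned to genotype and fraction by their titles. The authors called peaks per genotype on pooled samples at a false discovery rate under 0.05. The methods name MACS2, while the layout of spliced blocks is that of exomePeak, and the caller could not be settled. The submitters' processing notes name fastp 0.19.11, BWA 0.7.12, HOMER 4.9.1 and GRCm38.p6. The deposited p-value, the deposited scores (log10 p and log10 false discovery rate) and the deposited fold enrichment, a ratio of IP over input, were used as given. Library totals are unknown.

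Peaks were matched and ranked with numpy 2.4.6 and scipy 1.17.1 (Python 3.11.15), and figures used matplotlib 3.10.9. Peak centres were placed within RefSeq gene spans of GRCm38.p6, for all genes only where the span was at least 3000 bp. On simulated data, a copy of the 18400 peaks of the controls with entries kept, shortened or removed, the matching was right for 18400. The alternatives changed the overlap rule, strand, false discovery rate, identifier and window.

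The members and lists were chosen with earlier results of these data known. Named genes were all 9 members, pathway genes with a peak in 1 list only and, per role, the gene with the smallest false discovery rate (ties by p-value), except an item that is not reported here. No sequence was analysed here.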

Additional observations from a re-analysis of the deposited data

How the results depend on the processing

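With at least 50% of a peak's bases shared, 4 of 19 *Wtap* flox/flox peaks on the 9 genes had no *Wtap*-BKO peak, against 1 of 19. On the other pathway genes 42 of 157 became 63 of 157. The share over all peaks was not computed under this rule, so 4 of 19 has no background. Where both lists were held to a false discovery rate under 1e-05, 5 of 18 on the 9 genes had none, against 33.8% of all. For *Wtap*-BKO peaks on these genes, 8 of 26 became 4 of 16 under that limit, whether or not it was also set on the other list. On the other pathway genes, 34 of 157 became 16 of 97 with the limit on both lists, against 28.1% of all. With the limit on the *Wtap*-BKO list alone it was 6 of 97, against 15.4% of all. Counting any peak on the same gene left 0 in each direction on the 9 genes. With a window of 2000 bp, 7 *Wtap* flox/flox and 7 *Wtap*-BKO peaks were centred near the 3′ end, against 3 and 2. These settings change the rule itself or the number of peaks. A stricter overlap or a wider window can move its count in 1 direction only, but the size of each shift depends on the data. Whole spans, no regard to strand, Ensembl identifiers and a window of 500 bp gave counts within 1.5 times the main ones. Under the limit of 1e-05 the ratio of covered bases was 1.31 and 8 genes kept peaks in both lists.

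No paired analysis was possible because each genotype has 1 pooled IP and 1 pooled input, and no replicate was left out. Library totals are unknown, so how far depth limits the detection of a peak was not tested.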
